A study of Mus musculus with 75 samples.

Results

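The genes described here are 10 genes of the MHC class II antigen presentation pathway, Cd74, H2-Aa, H2-Ab1, H2-Eb1, H2-Oa, H2-Ob, H2-DMa, H2-DMb1, Ciita and Ctss, in mouse bone marrow stem and progenitor cells. They were chosen by name for their place in the pathway, and each was found as 1 row among the 41388 gene rows of both RNA-seq count tables. Their levels are given by cell population, by Kmt2c genotype and by treatment with the cytokine IL-1.

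The study sequenced total RNA of 75 libraries in 20 groups, from mice that were 8 weeks old. In the first experiment, haematopoietic stem cells (HSC), haematopoietic progenitor cells (HPC), pre-granulocyte-monocyte progenitors (pGM) and granulocyte-monocyte progenitors (GMP) of untreated mice were taken from 3 genotypes, with 4 libraries in each of 12 groups. The genotypes were Kmt2c f/f; Vav-Cre (ko), Kmt2c f/+; Vav-Cre (het) and wild type (wt). Kmt2c encodes a histone H3 lysine 4 methyltransferase, and Vav-Cre deletes the floxed alleles throughout the blood lineage from fetal life. The labels give the wt mice no Cre, so that an effect of Kmt2c loss against wt cannot be told apart from an effect of Cre. In the second experiment, HSC and HPC of ko and wt mice came after 3 days of IL-1 at 0.5 µg per mouse (IL1) or of its vehicle (PBS), with 4 libraries in each HSC group, except 3 for wt IL1, and 3 in each HPC group. The labels do not say that libraries of a group came from separate animals, so p-values measure the spread between libraries. In the second experiment the HSC libraries carry a conflicting cell type tag, and they were taken as HSC from their titles, sources and descriptions.

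MHC class II molecules are pairs of an alpha and a beta chain that show peptides from outside the cell to CD4+ T cells. They are assembled with the invariant chain Cd74, which blocks the peptide groove and takes the pair to endosomes. There cathepsin S (Ctss) cuts the invariant chain down to a short remnant, H2-DM exchanges that remnant for peptide, and H2-DO restrains H2-DM. Ciita is the coactivator that turns the class II genes on. The pathway is best known from dendritic cells, B cells and macrophages, and class II has also been found on stem and progenitor cells.

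Total counts per library ran from 13273930 to 20814535 in the first experiment and from 18649343 to 42826325 in the second. Levels are CPM, the counts scaled to a common library size with TMM factors. Differences are log2 fold changes with their standard error (SE) from edgeR's quasi-likelihood test, and a gene is called when its Benjamini-Hochberg adjusted p, over all genes tested, is under 0.05. In the first experiment Kmt2c averaged 16.0 CPM in ko HSC, 35.6 CPM in het HSC and 50.9 CPM in wt HSC, and it was called lower in ko than in wt in all 4 populations. In the second experiment the library labelled HSC wt IL1 replicate 1 held 14.0 CPM of Kmt2c, against 41.6 and 42.6 CPM in the other HSC wt IL1 libraries and 12.7 to 16.8 CPM in HSC ko IL1. Population markers followed the labels: the stem cell gene Slamf1 lay between 29.0 and 41.8 CPM in HSC wt and at or under 0.172 CPM in GMP wt, while the granule gene Mpo lay between 276 and 979 CPM in HSC wt and between 69240 and 94780 CPM in GMP wt. In ko replicates 1 and 4 of the first experiment Xist was present without Y-linked reads, so that sex was partly mixed with genotype. In the second experiment the median summed level of 4 Y-linked genes was 192 CPM in HPC wt IL1 and 0.102 CPM in HPC wt PBS. It was 159 CPM in HSC wt IL1 and 0.0625 CPM in HSC ko IL1. Sex was thus partly mixed with treatment and with genotype in that experiment as well.

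The invariant chain and the classical class II chains were lower in GMP than in HSC, by 49.1-fold to 76.3-fold for Cd74, H2-Aa and H2-Eb1 and by 4.41-fold for H2-Ab1. Cd74 had 15.3, 7.84, 5.33 and 12.5 CPM in GMP wt, against 528, 911, 792 and 396 CPM in HSC wt. It was 63.9-fold lower in GMP wt (log2 -6.00 ± 0.64, adjusted p 3.51e-10 by edgeR), with no overlap between the groups. The alpha chain gene H2-Aa had 5.44, 4.08, 3.18 and 3.68 CPM in GMP wt, against 186, 266, 218 and 136 CPM in HSC wt, a 49.1-fold difference (log2 -5.62 ± 0.60). The beta chain gene H2-Eb1 averaged 1.21 ± 0.472 CPM in GMP wt and 93.4 ± 23.3 CPM in HSC wt (SD, n = 4 each), a 76.3-fold difference (log2 -6.25 ± 0.60). The beta chain gene H2-Ab1 kept more of its RNA in GMP than H2-Aa, Cd74 and H2-Eb1 did by these fold values. It averaged 21.7 ± 4.29 CPM in GMP wt and 95.8 ± 29.1 CPM in HSC wt (SD, n = 4 each), a smaller difference (log2 -2.14 ± 0.36, adjusted p 2.01e-06 by edgeR). Ciita had 2 reads in all 4 GMP wt libraries together and 290 reads in HSC wt, a depth-corrected ratio of 0.0108 (95% counting interval 0.0013 to 0.0393). In bulk RNA, fewer class II expressing cells and less class II RNA per cell cannot be told apart.

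Of the 10 genes, 7 were called lower and 1 higher in GMP wt than in HSC wt. Among all genes tested, 33.7% were called lower and 27.5% higher in that comparison. The median log2 fold change was -1.81 over the 10 genes and -0.16 over all genes.

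Most of this difference lay between pGM and GMP. From pGM to GMP, 9 of the 10 genes were called lower in GMP wt, against 18% of all genes, with a median log2 fold change of -2.66 over the 10 genes and -0.11 over all genes. Cd74 was 27.97-fold lower in GMP wt than in pGM wt (log2 -4.81 ± 0.61), H2-Eb1 was 20.7-fold lower (log2 -4.37 ± 0.57) and H2-Aa was 17.9-fold lower (log2 -4.16 ± 0.57). Ciita had 2 reads in GMP wt and 134 reads in pGM wt, a ratio of 0.0196 (95% counting interval 0.00235 to 0.0722). H2-DMb1 was the gene not called, at 83.3 ± 5.83 CPM in GMP wt and 70.5 ± 8.23 CPM in pGM wt (SD, n = 4 each). Between HSC and pGM, 3 of the 10 genes were called higher and 2 lower in pGM wt, where 20.7% of all genes were called each way. H2-Eb1 was called lower in pGM wt (log2 -1.88 ± 0.46, adjusted p 0.0011 by edgeR). H2-Aa was called lower as well (log2 -1.45 ± 0.49, adjusted p 0.0154 by edgeR), but not without pGM wt replicate 3 (adjusted p 0.068). Cd74 averaged 287 ± 190 CPM in pGM wt and 657 ± 237 CPM in HSC wt (SD, n = 4 each) and was not called (log2 -1.19 ± 0.52, adjusted p 0.0621 by edgeR). It was called in 8 of 14 alternatives (adjusted p down to 0.004), among them DESeq2, RLE scaling, limma voom, the replicate block, the Y-linked covariate and the fits without HSC wt replicate 4 or pGM wt replicate 1 or 2.

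Cd74, H2-Aa and H2-Eb1 had their lowest group mean in GMP within ko, within het and within wt.

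**Figure D1:**
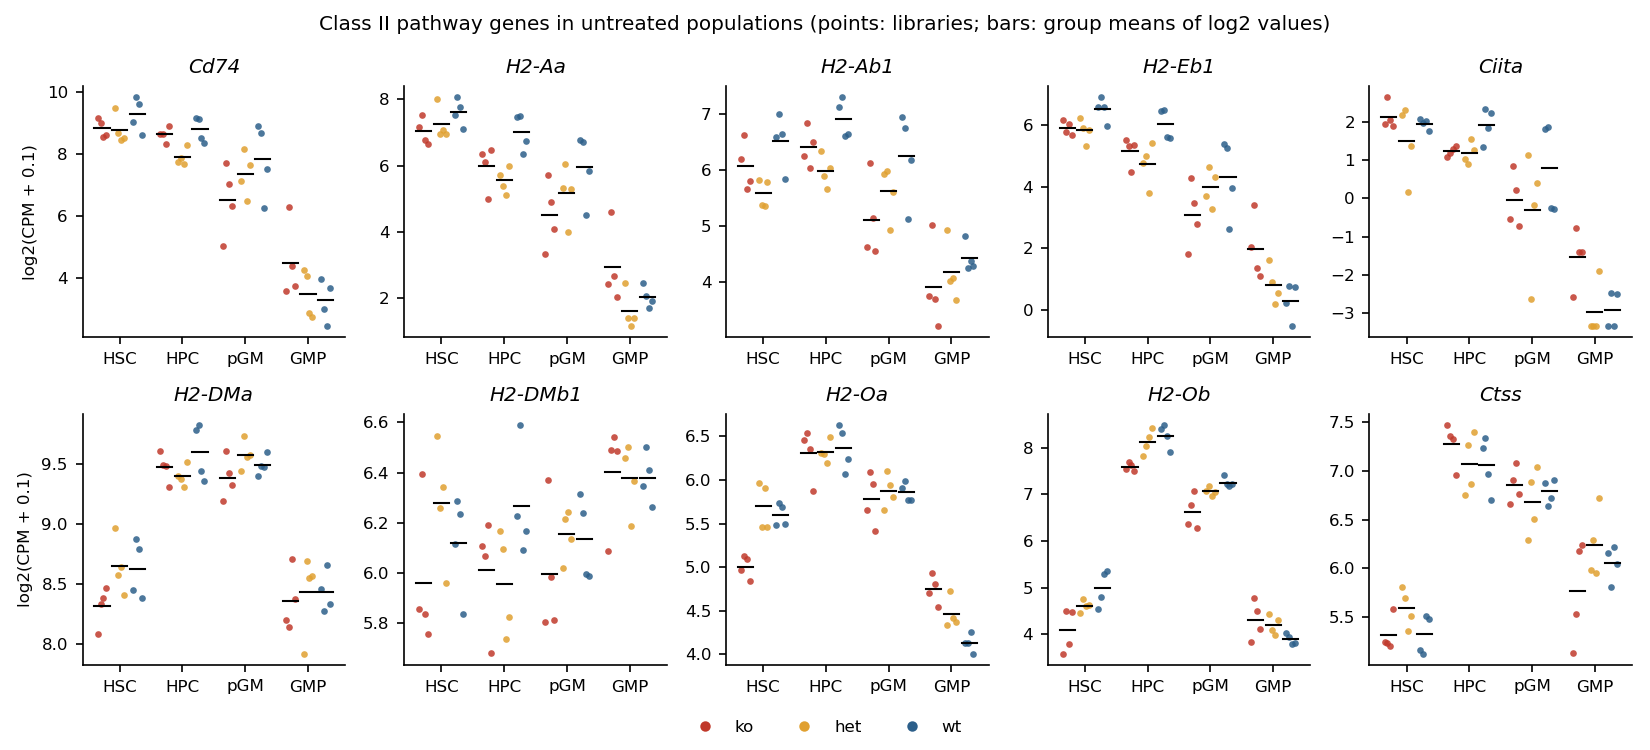
Levels of the 10 genes in the 48 untreated libraries, as log2(CPM + 0.1) on the vertical axis, with HSC, HPC, pGM and GMP along the horizontal axis and ko, het and wt side by side within each; each point is 1 library. Cd74, H2-Aa, H2-Eb1 and Ciita drop in GMP in all 3 genotypes, H2-Ob and Ctss peak in HPC, and H2-DMb1 stays level.

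H2-Oa and H2-Ob of H2-DO, H2-DMa of H2-DM and cathepsin S followed another course, with a rise in HPC. H2-DMb1, the other gene of H2-DM, was not called there, at 77.7 ± 12.6 CPM in HPC wt and 69.8 ± 9.29 CPM in HSC wt (SD, n = 4 each). H2-Ob, the beta chain of H2-DO, had 336, 357, 304 and 239 CPM in HPC wt, against 23.3, 27.8, 39.3 and 40.7 CPM in HSC wt. It was 9.42-fold higher in HPC wt (log2 3.24 ± 0.20, adjusted p 1.12e-16 by edgeR), with no overlap. It was then 2.02-fold lower in pGM wt than in HPC wt (log2 -1.02 ± 0.19) and 10.3-fold lower in GMP wt than in pGM wt (log2 -3.36 ± 0.21). Its partner chain gene H2-Oa changed far less: it averaged 83.6 ± 14.9 CPM in HPC wt and 48.6 ± 4.52 CPM in HSC wt (SD, n = 4 each), a 1.72-fold difference (log2 0.78 ± 0.15). Ctss had 151, 162, 125 and 104 CPM in HPC wt, against 35.8, 34.8, 45.5 and 44.6 CPM in HSC wt, a 3.38-fold difference (log2 1.75 ± 0.20). H2-DMa was 1.97-fold higher in HPC wt than in HSC wt (log2 0.98 ± 0.14). In all, 4 of the 10 genes were called higher in HPC wt than in HSC wt and none lower, where 12.5% of all genes were called higher and 10.2% lower.

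In GMP these genes differed from each other. Ctss was the 1 gene called higher in GMP wt than in HSC wt (log2 0.74 ± 0.19, adjusted p 0.00116 by edgeR), although it was 1.66-fold lower in GMP wt than in pGM wt. H2-DMa averaged 348 ± 41.6 CPM in GMP wt and 400 ± 66.4 CPM in HSC wt (SD, n = 4 each) and was not called (log2 -0.20 ± 0.14), and H2-DMb1 was not called in any comparison of wt populations. Between HPC and pGM, 3 of the 10 genes were called lower in pGM wt, against 6.36% of all genes. Of these, H2-Ob held in all 14 alternatives, while the calls of H2-Eb1 (adjusted p 0.0335 by edgeR) and H2-Oa (adjusted p 0.0152 by edgeR) were lost without HPC wt replicate 1 or 2 or pGM wt replicate 3 or 4 (adjusted p up to 0.133 and up to 0.0804).

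Divided by exon length, to compare genes, the rank of the members turned over. Exon length here is the union of all annotated exons of a gene. Where the expressed transcript is shorter than this union, the value per kilobase is an underestimate. In HSC wt Cd74 stood highest at 391 CPM per kilobase, followed by H2-DMa at 116, H2-Aa at 53.0 and H2-Eb1 at 48.04 CPM per kilobase, and H2-Ob stood at 6.09 and Ciita at 0.397 CPM per kilobase. In GMP wt H2-DMa stood highest at 101 CPM per kilobase, followed by H2-DMb1 at 49.6 and Ctss at 49.3, and H2-Oa stood at 12.4, H2-Ab1 at 8.45, Cd74 at 6.11, H2-Ob at 2.76, H2-Aa at 1.08 and H2-Eb1 at 0.622 CPM per kilobase. In GMP wt, then, transcripts of H2-DMa, H2-DMb1 and Ctss were more abundant per length than those of Cd74, H2-Aa, H2-Ab1 and H2-Eb1, while H2-Ob lay below Cd74 and H2-Ab1.

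The second experiment held separate HSC and HPC libraries, and in its wt PBS groups 3 of the 10 genes were called higher in HPC than in HSC, against 6.46% of all genes. H2-Ob averaged 251 CPM in HPC wt PBS and 35.6 CPM in HSC wt PBS (log2 2.82 ± 0.37, adjusted p 4.28e-06 by edgeR), and Ctss averaged 107 and 29.8 CPM in the same groups (log2 1.84 ± 0.23). H2-DMa was called too (log2 0.57 ± 0.17, adjusted p 0.0225 by edgeR), though 5 of 13 alternatives lost it (adjusted p up to 0.132), among them without HPC wt PBS replicate 1 or 3 or HSC wt PBS replicate 2 or 4. H2-Oa averaged 32.5 CPM in HPC wt PBS and 28.8 CPM in HSC wt PBS and was not called (log2 0.17 ± 0.28).

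Genes that serve as markers of other cell types moved with some of these levels. Bulk RNA does not show whether the sorted cells themselves or other cells held the RNA of these markers. The summed level of 10 B cell markers was 114 to 173 CPM in HSC wt, 1128 to 2381 CPM in HPC wt, 927 to 1047 CPM in pGM wt and 734 to 818 CPM in GMP wt. Of these, 7 were called higher in HPC wt than in HSC wt. The defining B cell genes Pax5 and Ms4a1 stayed at or near 0, with at most 0.059 CPM of Pax5 and 0.575 CPM of Ms4a1 in HPC wt, while the light chain gene Igkc ran from 0.846 to 695 CPM there. The summed level of 10 dendritic cell markers was 417 to 476 CPM in HSC wt, 557 to 669 CPM in HPC wt, 866 to 888 CPM in pGM wt and 1008 to 1209 CPM in GMP wt. Of the 9 tested, 5 were called higher in HPC wt than in HSC wt, Itgax (log2 5.62 ± 0.94), Ccr7 (log2 5.12 ± 0.70), Cd7 (log2 4.42 ± 0.62), Siglech (log2 3.88 ± 1.36) and Cst3 (log2 0.43 ± 0.12), and 1 lower, Zbtb46 (log2 -1.66 ± 0.56). The genes Xcr1 and Clec9a, which mark one kind of dendritic cell, were at most 0.603 and 0.531 CPM in HPC wt. In the fit of the GMP libraries alone, 1 of the 10 dendritic cell markers passed the filter on low counts. Their sum in GMP thus came mostly from 1 gene. The summed level of 11 macrophage and monocyte markers was 58.4 to 154 CPM in HSC wt and 3097 to 3568 CPM in GMP wt. From pGM wt to GMP wt, 5 of 9 tested dendritic cell markers were called lower and 1 higher, with a median log2 fold change of -2.76. Of 9 tested B cell markers, 5 were called lower and 0 higher there (median -2.47). Of the 11 macrophage and monocyte markers, 3 were called lower and 3 higher (median 0.73). Among all genes 18% were called lower, with a median of -0.11. The part of other cells, if present, in the population differences was not tested.

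Other genes of the pathway were called in both directions, as were all genes, of which the shares given above were 27.5% higher and 33.7% lower in GMP wt than in HSC wt. Among 17 regulators of class II genes, 6 were called higher and 9 lower in GMP wt than in HSC wt, with a median log2 fold change of -0.75. Irf8, a transcription factor of monocyte and dendritic cell fate, rose (log2 4.78 in GMP wt against HSC wt), and so did Spi1, the myeloid factor PU.1 (log2 0.61). The interferon-induced factor Irf1 fell (log2 -1.2), as did Rfx5, a subunit of the complex that binds class II promoters (log2 -1.54). Among 9 class I genes 2 were called higher and 4 lower, among them H2-K1 (log2 -1.16) and B2m (log2 -1.05), the light chain of class I. Of 15 accessory genes of antigen processing, 11 were tested, and 4 were called higher and 3 lower.

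Several members share a promoter arrangement that is known for class II genes, and it is shown here because those genes differ in their course across the populations. RefSeq (GRCm38.p6) promoters were examined for 7 of the 10 genes, and promoters of Cd74, H2-Ab1 and Ciita were not. In class II promoters an X box, bound by RFX, stands upstream of a Y box, bound by NF-Y, and Ciita is recruited to the complex. RefSeq promoters were searched on both strands for GCAAC, from the core of the X box, followed by GATTGG, from the Y box, with the start of GATTGG 26 to 35 bases downstream of the start of GCAAC. The motifs and their spacing were chosen after the sequences were seen. The 2 motifs do not overlap. The pair was found in 65 of 32851 promoters (0.198%), GCAAC, alone or paired, in 35.2% and GATTGG, alone or paired, in 16.1%. The 90 bases that lie 120 to 31 bases before the annotated start are printed 5′ to 3′ on the gene's strand with both motifs in capitals. They are chr17:34287854-34287943 on the minus strand for H2-Aa, and on the plus strand chr17:34305747-34305836 for H2-Eb1, chr17:34092259-34092348 for H2-Oa, chr17:34238785-34238874 for H2-Ob and chr17:34153071-34153160 for H2-DMb1.
H2-Aa: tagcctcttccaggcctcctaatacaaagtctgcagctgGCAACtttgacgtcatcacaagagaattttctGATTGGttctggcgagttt
H2-Eb1: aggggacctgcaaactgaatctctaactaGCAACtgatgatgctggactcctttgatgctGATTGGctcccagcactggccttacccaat
H2-Oa: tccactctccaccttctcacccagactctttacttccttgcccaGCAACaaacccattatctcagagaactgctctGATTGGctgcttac
H2-Ob: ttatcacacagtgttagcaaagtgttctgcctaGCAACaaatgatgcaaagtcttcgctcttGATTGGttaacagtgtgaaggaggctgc
H2-DMb1: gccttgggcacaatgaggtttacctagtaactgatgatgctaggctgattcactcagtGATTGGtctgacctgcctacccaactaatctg

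The spacing between the starts of the motifs was 32 bases in H2-Aa, 31 in H2-Eb1, 32 in H2-Oa and 29 in H2-Ob. H2-DMb1 held GATTGG in this window without an exact GCAAC paired to it, and the searched promoters of H2-DMa and Ctss did not hold the pair. The H2-DMb1 window does hold gtaac upstream of GATTGG, which the exact search for GCAAC does not count. The H2-DMa promoters searched were chr17:34122582-34122881 and chr17:34125268-34125567. Both lie within the annotated gene (chr17:34119541-34139101), which overlaps Brd2, and no other start of H2-DMa was searched. H2-Aa and H2-Eb1 on one side and H2-Ob on the other all held the pair, although H2-Aa and H2-Eb1 were not called between HPC wt and HSC wt while H2-Ob rose there. A match is a description of these letters and shows no binding.

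Among 10918 other genes averaging at least 5 CPM in a group, those whose mean log2 levels most resembled the mean course of Cd74, H2-Aa, H2-Ab1 and H2-Eb1 over the 12 untreated groups included Tgtp2 (r = 0.988), Armcx1 (r = 0.985), Sorbs3 (r = 0.984) and Dkkl1 (r = 0.982). The 12 groups share 4 populations, so that the fall in GMP sets most of this likeness. Tgtp2 averaged 70.4 CPM in HSC wt, 52.1 CPM in HPC wt, 28.3 CPM in pGM wt and 5.46 CPM in GMP wt, and its near-identical paralog makes its count uncertain. By the same measure Ciita resembled the classical course (r = 0.982), H2-Oa did less (r = 0.758), and H2-Ob (r = 0.456), H2-DMa (r = 0.399) and Ctss (r = 0.024) did not follow it closely, and H2-DMb1 ran against it (r = -0.605), with group means between 62.4 and 85.1 CPM.

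In some groups, though not in all, libraries differed far more for the classical genes than for the others. In pGM wt, Cd74 had 477, 415, 76.5 and 181 CPM, so that the highest library held 6.24 times the lowest. The same ratio was 6.84 for H2-Eb1, 4.87 for H2-Aa, 4.86 for Ciita and 3.54 for H2-Ab1. It was 1.14 for H2-DMa, 1.17 for H2-Oa, 1.17 for H2-Ob, 1.2 for Ctss and 1.26 for H2-DMb1. In HPC ko PBS the ratio was 1.06 for Cd74, 1.12 for H2-Eb1, 1.22 for H2-Ab1 and 1.42 for H2-Aa. There it was 1.16 for Ctss, 1.23 for H2-DMa, 1.24 for H2-Oa, 1.28 for H2-DMb1 and 1.42 for H2-Ob. In pGM wt the libraries high in 1 classical gene were high in the others: H2-Aa had 110, 104, 22.6 and 56.9 CPM and H2-Eb1 had 41.5, 38.1, 6.07 and 15.5 CPM in the same 4 libraries, in the order of Cd74 above.

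This was examined over all libraries as each library's deviation from its group mean, on log2(CPM + 0.5), for 45 pairs of genes in each experiment. Over the 48 untreated libraries H2-Aa deviated with Cd74 (Pearson r = 0.90, Spearman rho = 0.86), with H2-Ab1 (r = 0.90, rho = 0.88) and with H2-Eb1 (r = 0.89, rho = 0.86). Each had an adjusted p of 7.5e-05 for r and for rho by a permutation test within groups, from 1e-05, the smallest that 1e+05 permutations can give. Without the 2 libraries farthest from the median the r values were 0.87, 0.86 and 0.86. In the 27 libraries of the second experiment, H2-Aa again deviated with H2-Ab1 (r = 0.90, rho = 0.87, adjusted permutation p 0.0003 for both) and with H2-Eb1 (r = 0.90, rho = 0.86, adjusted permutation p 0.000225 for r and 0.0003 for rho), and r without 2 libraries was 0.86 and 0.84. H2-Aa also deviated with Ctss there (r = 0.80, rho = 0.81, adjusted permutation p 0.00219 for r and 0.00225 for rho, r = 0.74 without 2 libraries). Ciita did not pass with Cd74, H2-Aa, H2-Ab1 or H2-Eb1 in either experiment. Its r with them was 0.34 to 0.38 in the first (adjusted permutation p 0.0732 or more). In the second it was 0.08 to 0.60 (adjusted permutation p 0.0525 or more). Cd74 and H2-Aa did not pass in the second experiment (r = 0.32, rho = 0.29, adjusted permutation p 0.385 for r). The HSC ko IL1 replicate 1 library, for example, held 712 CPM of Cd74 with 22.0 CPM of H2-Aa, against 145 to 334 CPM of Cd74 and 21.8 to 57.7 CPM of H2-Aa in the other libraries of its group. Whether 2 experiments differ in this correlation was not tested.

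**Figure D2:**
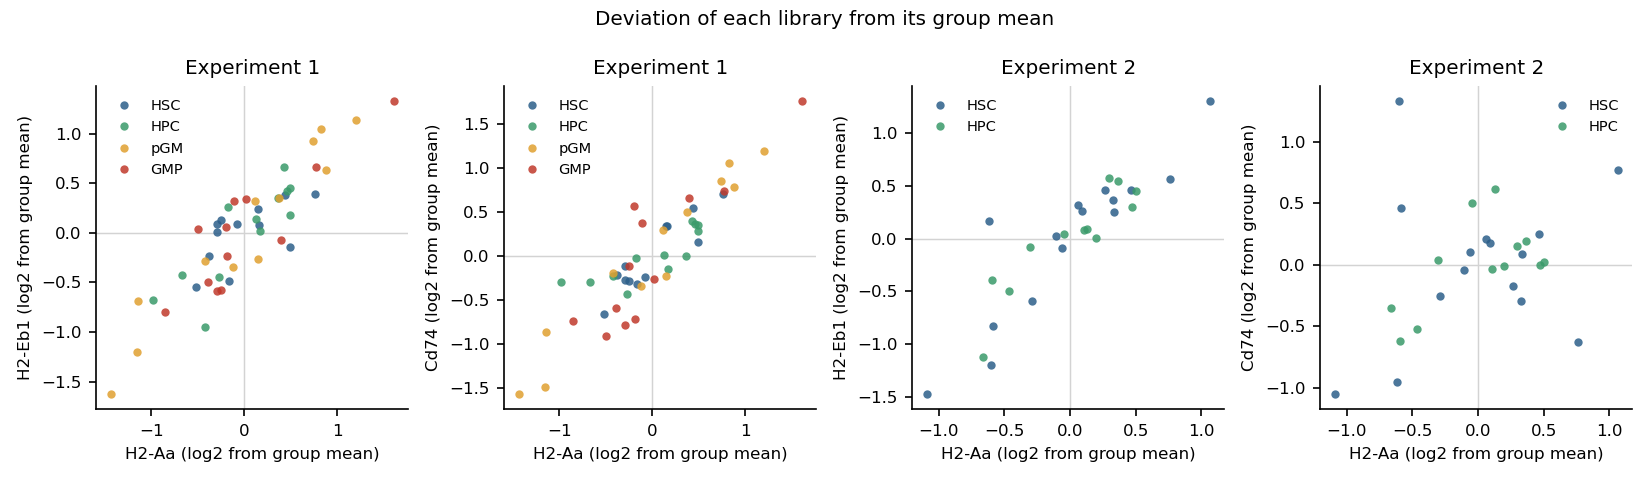
Deviations of single libraries from their group means on log2(CPM + 0.5), for H2-Aa (horizontal axis) against H2-Eb1 and against Cd74 (vertical axes), with the 48 libraries of the first experiment and the 27 of the second in separate panels; each point is 1 library. H2-Aa and H2-Eb1 deviate together in both experiments, with r = 0.89 and 0.90, and H2-Aa and Cd74 do so in the first, with r = 0.90, against r = 0.32 in the second.

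H2-Ob, the beta chain of H2-DO, was lower in ko than in wt in HPC and in pGM. In HPC, H2-Ob had 187, 206, 196 and 181 CPM in ko, against 336, 357, 304 and 239 CPM in wt. Every ko library lay below every wt library, and H2-Ob was 1.61-fold lower (log2 -0.69 ± 0.16, adjusted p 0.0372 by edgeR). In pGM, H2-Ob had 82.1, 109, 135 and 77.6 CPM in ko, against 169, 148, 145 and 148 CPM in wt. The groups again did not overlap, and H2-Ob was 1.51-fold lower (log2 -0.59 ± 0.14, adjusted p 0.0291 by edgeR). H2-Ob was the 1 member called in each of these comparisons, where 0.851% of all genes were called lower in HPC and 1.53% in pGM. Both calls were near the threshold: 10 of 15 alternatives lost the call in HPC (adjusted p up to 0.253) and 8 of 15 lost it in pGM (adjusted p up to 0.21), among them, in both populations, the fit with Y-linked expression as a covariate. In HPC it was lost without any 1 of the 4 ko libraries or of wt replicates 1 to 3, and in pGM without ko replicate 1 or 4 or any 1 of the 4 wt libraries. The log2 fold change stayed between -0.78 and -0.62 in HPC and between -0.75 and -0.34 in pGM.

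In HSC the same gene had 11.97, 22.6, 13.7 and 22.2 CPM in ko, against 23.3, 27.8, 39.3 and 40.7 CPM in wt, without overlap (log2 -0.91 ± 0.23, adjusted p 0.056 by edgeR). H2-Oa, its partner, had 31.1, 34.8, 34.1 and 28.5 CPM in HSC ko, against 44.7, 53.4, 51.6 and 44.8 CPM in HSC wt, also without overlap (log2 -0.61 ± 0.16, adjusted p 0.0633 by edgeR). Of 15 alternatives, 7 called H2-Ob, among them without ko replicate 2 or 4 or wt replicate 1, and 3 called H2-Oa. No member was called in HSC ko by edgeR, where 1.78% of all genes were called. At an unadjusted p under 0.05 there were 5 members and 10.7% of all genes. DESeq2 and limma voom each called 2, H2-Oa and H2-Ob, with 2.99% and 3.24% of all genes. Of the 10 genes 9 had a log2 fold change below 0, with a median of -0.49 against 0.01 over all genes.

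The libraries of the second experiment were separate from these. H2-Ob averaged 20.2 ± 2.24 CPM in HSC ko PBS and 35.6 ± 9.0 CPM in HSC wt PBS (SD, n = 4 each), with every ko library lower (log2 -0.82 ± 0.35, adjusted p 0.475 by edgeR). It averaged 177 CPM in HPC ko PBS and 251 CPM in HPC wt PBS, with overlap (log2 -0.51 ± 0.31, adjusted p 0.664 by edgeR). After IL-1, H2-Ob had 11.1, 16.3, 29.7 and 38.0 CPM in HSC ko IL1, against 20.03, 52.7 and 64.5 CPM in HSC wt IL1 (log2 -0.97 ± 0.37, adjusted p 0.489 by edgeR). The wt library at 20.03 CPM, replicate 1, lay within the ko range for H2-Ob as it did for Kmt2c. Kmt2c itself was not called in this comparison (log2 -1.16 ± 0.32, adjusted p 0.279 by edgeR). Without that library the log2 fold change of H2-Ob was -1.33 (adjusted p 0.0928 by edgeR). In HPC after IL-1 the log2 fold change of H2-Ob was -0.71 ± 0.31 and was not called. By edgeR no member was called between ko and wt in the second experiment, where 0.798% of all genes were called in HSC PBS, 0% in HSC IL1, 0.257% in HPC PBS and 0.201% in HPC IL1. At an unadjusted p under 0.05 there were 1, 3, 1 and 2 members in these comparisons, with 9.05%, 8.54%, 9.04% and 5.21% of all genes. DESeq2 called 1 member, Cd74 in HPC PBS, and 2.07%, 0.506%, 1.38% and 0.903% of all genes, in the same order. In all 7 comparisons of ko with wt outside GMP, H2-Ob thus had a log2 fold change below 0, and 2 of them were called.

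In GMP the values of both H2-DO genes lay the other way. H2-Oa had 25.9, 30.4, 27.8 and 23.2 CPM in GMP ko, against 17.4, 17.4, 19.0 and 16.0 CPM in GMP wt. All ko libraries lay above all wt libraries, although the gene was not called (log2 0.63 ± 0.16, adjusted p 0.14 by edgeR). H2-Ob had 14.2, 27.4, 22.5 and 17.3 CPM in GMP ko, against 16.2, 15.4, 13.8 and 13.9 CPM in GMP wt, with overlap (log2 0.46 ± 0.21, adjusted p 0.511 by edgeR). GMP het lay above wt in mean value too, without either gene being called. H2-Oa ran from 20.1 to 26.5 CPM in GMP het, with every het library above every wt library. H2-Ob averaged 18.6 CPM in GMP het and 14.8 CPM in GMP wt, with overlap. The difference between the populations was tested as an interaction. The ko against wt effect in GMP minus that in HSC was 1.22 ± 0.22 for H2-Oa (adjusted p 0.00185 by edgeR) and 1.35 ± 0.27 for H2-Ob (adjusted p 0.0105 by edgeR), on the log2 scale. Both calls held in all 22 alternatives, and 0.311% of all genes were called higher in this test. The same interaction called none of the 10 genes for HPC minus HSC, where 0.232% of all genes were called, or for pGM minus HSC, where 0.218% were. By edgeR each had 1 member, H2-Oa, at an unadjusted p under 0.05, with 6.86% of all genes for HPC and 5.02% for pGM. DESeq2 called none of the 10 genes, and 0.41% and 0.328% of all genes.

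The invariant chain and 2 of the 3 classical chains of GMP ko were also above wt in mean value, at levels near the bottom of the range and without being called. Cd74 averaged 30.8 ± 31.5 CPM in GMP ko and 10.3 ± 4.51 CPM in GMP wt (SD, n = 4 each; log2 1.59 ± 0.59), and H2-Aa averaged 9.97 ± 9.61 and 4.09 ± 0.97 CPM in the same groups (log2 1.28 ± 0.50). H2-Ab1 lay the other way, with 13.3, 32.2, 12.8 and 9.15 CPM in GMP ko, against 28.02, 18.9, 20.6 and 19.3 CPM in GMP wt (log2 -0.36 ± 0.36), so that 3 of the 4 ko libraries were below every wt library. H2-Eb1 had 4.02, 10.6, 2.46 and 2.02 CPM in GMP ko, against 1.07, 1.60, 0.601 and 1.57 CPM in GMP wt (log2 1.97 ± 0.54, adjusted p 0.166 by edgeR). Without GMP ko replicate 2, the library highest in Cd74, H2-Aa, H2-Ab1 and H2-Eb1, the log2 fold change of H2-Eb1 was 1.25. That library was also the highest of GMP ko for H2-Oa and H2-Ob. Over all alternatives, leaving it out among them, their log2 fold changes were 0.58 to 0.72 for H2-Oa and 0.3 to 0.73 for H2-Ob. Ciita had 15 reads in GMP ko and 2 reads in GMP wt, a depth-corrected ratio of 6.49 (95% counting interval 1.51 to 58.5), and did not pass the filter on low counts. No member was called in GMP ko by edgeR, against 0.555% of all genes, with 5 of the 9 tested and 9.32% of all genes at an unadjusted p under 0.05. DESeq2 called 2 members and 1.66% of all genes, and limma voom called 1 member and 1.9% of all genes.

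**Figure D3:**
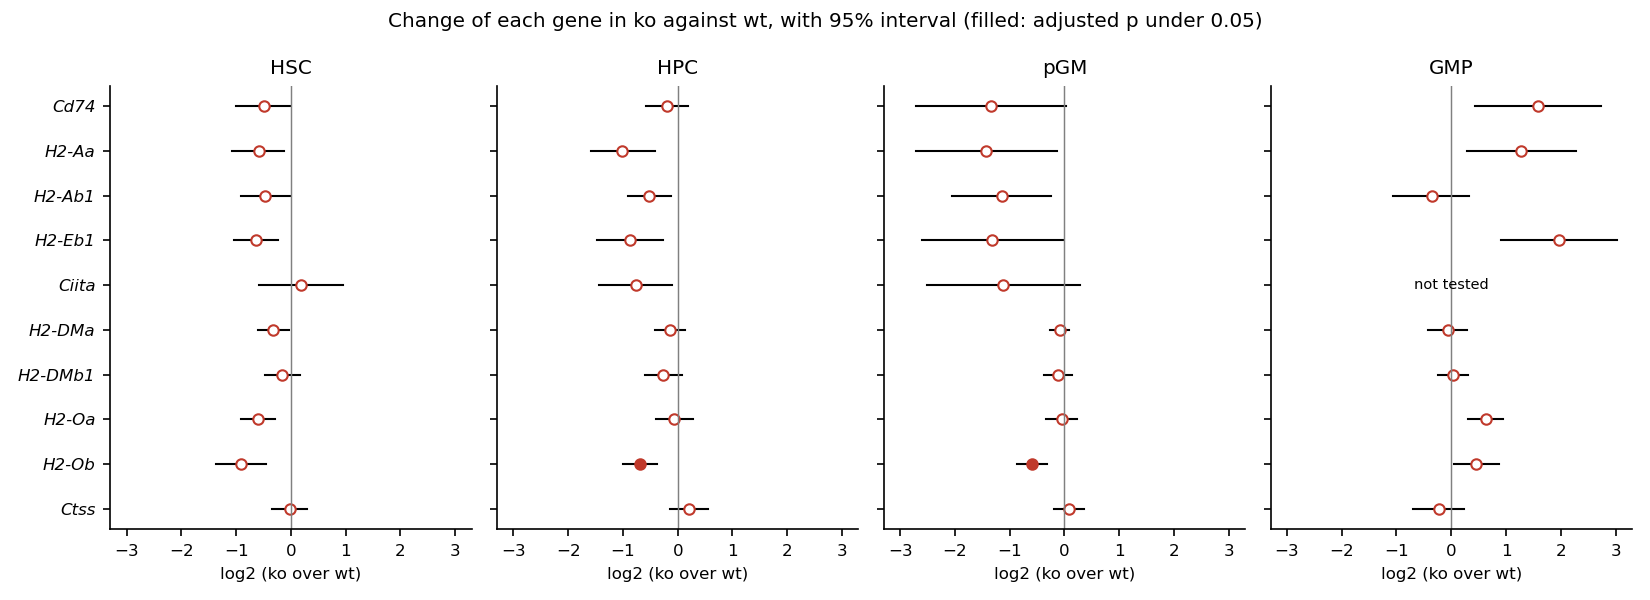
Log2 fold change of ko over wt for the 10 genes in untreated HSC, HPC, pGM and GMP, with bars for the 95% interval from its SE; filled symbols are called at an adjusted p under 0.05, and Ciita was not tested in GMP. H2-Ob lies at -0.91, -0.69 and -0.59 in HSC, HPC and pGM and at 0.46 in GMP, and the intervals of Cd74, H2-Aa and H2-Eb1 are widest in pGM and GMP.

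The classical genes were lower in value in ko HPC and pGM without passing the test. H2-Aa averaged 67.7 ± 25.5 CPM in HPC ko and 136 ± 50.5 CPM in HPC wt (SD, n = 4 each), with overlap (log2 -1.01 ± 0.30, adjusted p 0.161 by edgeR). In pGM, where the highest ko library held 6.54 times the Cd74 of the lowest, Cd74 averaged 113 ± 75.9 CPM in ko and 287 ± 190 CPM in wt (SD, n = 4 each; log2 -1.35 ± 0.70, adjusted p 0.665 by edgeR).

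Among HPC, the mean levels of Cd74, H2-Aa, H2-Ab1 and H2-Eb1 were lowest in het. Cd74 had 215, 235, 204 and 313 CPM in HPC het, against 575, 566, 363 and 330 CPM in HPC wt. H2-Aa had 52.9, 41.3, 34.7 and 63.1 CPM in HPC het, against 177, 181, 80.6 and 107 CPM in HPC wt. For both genes, and for H2-Ab1 and H2-Eb1, every het library lay below every wt library. The share of all genes without such overlap was not determined. These genes also deviated together within groups of the first experiment (r = 0.80 to 0.90), so they are not separate observations. The log2 fold changes were -0.92 ± 0.20 for Cd74 (adjusted p 0.523 by edgeR), -1.50 ± 0.30 for H2-Aa (adjusted p 0.506 by edgeR), -0.94 ± 0.20 for H2-Ab1 (adjusted p 0.523 by edgeR) and -1.23 ± 0.31 for H2-Eb1 (adjusted p 0.876 by edgeR). By edgeR none was called, where 0.00753% of all genes were, and 5 members had an unadjusted p under 0.05, with 4.22% of all genes. DESeq2 called 3, Cd74, H2-Aa and H2-Ab1, and 0.078% of all genes. In HSC, H2-Ab1 averaged 48.4 ± 8.61 CPM in het and 95.8 ± 29.1 CPM in wt (SD, n = 4 each), also without overlap (log2 -0.99 ± 0.23, adjusted p 0.511 by edgeR). In HSC het edgeR called none of the 10 genes and 0.00724% of all genes, with 2 members and 5.49% of all genes at an unadjusted p under 0.05. DESeq2 called H2-Ab1 and 0.149% of all genes. H2-Ob did not follow the order of the classical genes in HPC: it averaged 283 ± 50.5 CPM in HPC het and 309 ± 51.6 CPM in HPC wt (SD, n = 4 each; log2 -0.12 ± 0.15).

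In het pGM and het GMP no member was called against wt by edgeR, where 0.0155% and 0.00828% of all genes were called, with 0 members at an unadjusted p under 0.05 and 0 called by DESeq2. Of all genes, 7.35% in pGM and 2.78% in GMP had an unadjusted p under 0.05, and DESeq2 called 0.471% and 0.00466%.

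Between ko and het both sides carry Vav-Cre, and there H2-DO was not lower in ko in every population. In HSC both genes had lower means in ko than in het, and in HPC and pGM H2-Ob did, while H2-Oa in HPC was near equal, at 80.4 ± 15.1 CPM in ko and 80.3 ± 7.05 CPM in het (SD, n = 4 each), and averaged 55.8 ± 11.5 CPM in pGM ko and 59.0 ± 7.93 CPM in pGM het. In GMP both had higher means in ko, with 26.8 ± 3.04 CPM of H2-Oa in ko and 22.1 ± 2.94 CPM in het, and 20.4 ± 5.79 CPM of H2-Ob in ko and 18.6 ± 2.66 CPM in het. H2-Oa had 31.1, 34.8, 34.1 and 28.5 CPM in HSC ko, against 62.5, 44.0, 60.1 and 43.8 CPM in HSC het, without overlap (log2 -0.71 ± 0.16, adjusted p 0.0755 by edgeR). H2-Ob averaged 193 ± 10.8 CPM in HPC ko and 283 ± 50.5 CPM in HPC het (SD, n = 4 each), without overlap (log2 -0.57 ± 0.16, adjusted p 0.255 by edgeR). Cd74 lay the other way in HPC, with every ko library above every het library (log2 0.72 ± 0.20, adjusted p 0.24 by edgeR). By edgeR no member was called in ko against het in any of the 4 populations, where 0.326% of all genes were called in HSC, 0.196% in HPC, 0.564% in pGM and 0.0166% in GMP. At an unadjusted p under 0.05 there were 3 members in HSC, 2 in HPC, 1 in pGM and 3 in GMP, with 7.19%, 6.21%, 8.59% and 4.45% of all genes. DESeq2 called 1 in HSC, H2-Oa, and 0 in the others, and 0.98%, 0.649%, 1.39% and 0.278% of all genes.

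Few other genes of the pathway were called between genotypes. In pGM ko, 1 of 11 tested accessory genes was called higher, Ifi30, a thiol reductase of antigen processing (log2 0.84 ± 0.19, adjusted p 0.0272 by edgeR), and 1 lower, the costimulatory ligand Cd86 (log2 -1.92 ± 0.42, adjusted p 0.0239 by edgeR). In GMP ko 1 of 10 was called higher, the ubiquitin ligase gene March8 (log2 0.94 ± 0.20, adjusted p 0.0425 by edgeR), and in HSC ko and HPC ko none of 11 and of 10 was called by edgeR, with 3 and 2 at an unadjusted p under 0.05. None of the tested regulators or class I genes was called by edgeR in ko against wt in any of the 4 populations. At an unadjusted p under 0.05 there were 5 of 16 regulators in HSC, 3 of 16 in HPC, 4 of 16 in pGM and 1 of 15 in GMP, and 0 of 9 class I genes in each. Among all genes the shares at that threshold were 10.7% in HSC, 8.26% in HPC, 9.2% in pGM and 9.32% in GMP. In HPC ko, Irf8 was at a log2 fold change of 1.33 ± 0.36 (adjusted p 0.1 by edgeR).

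Markers of lineage were called with genotype too. Of 11 macrophage and monocyte markers, 9 had a log2 fold change below 0 in HSC ko (median -1.12 against 0.01 over all genes), with C1qb (log2 -1.9 ± 0.47) and Cd163 (log2 -1.17 ± 0.28) called lower, and 9 were below 0 in HSC ko PBS against wt PBS (median -1.89), with Cd163 (log2 -1.05 ± 0.22) and Vcam1 (log2 -2.14 ± 0.42) called lower. Their summed level was 55.0 to 157 CPM in HSC ko and 58.4 to 154 CPM in HSC wt. In HPC ko 4 of the 11 were above 0 and 7 below, with a median of -0.50, and in pGM ko 3 were above and 8 below, also with a median of -0.50. In GMP ko 2 of the 9 tested were above 0 and 7 below, with a median of -0.49 and Ccr2 (log2 -1.32 ± 0.26) called lower. Their summed level was nevertheless 219 to 301 CPM in HPC ko and 146 to 192 CPM in HPC wt, and 587 to 764 CPM in pGM ko and 402 to 576 CPM in pGM wt. In HPC ko the stem cell gene Procr fell (log2 -1.0 ± 0.20), and the granulocyte gene Prtn3 (log2 0.89 ± 0.15) and the macrophage gene Cd68 (log2 0.82 ± 0.17) rose. In pGM ko the lymphoid genes Dntt (log2 -1.36 ± 0.16) and Cd7 (log2 -1.32 ± 0.33) fell, and the macrophage genes Csf1r (log2 0.68 ± 0.16) and Cd68 (log2 0.51 ± 0.12) rose. The summed B cell markers were 1443 to 3731 CPM in HPC ko and 1128 to 2381 CPM in HPC wt, and 790 to 1043 CPM in pGM ko and 927 to 1047 CPM in pGM wt. The part of other cells, if present, in the levels of H2-Oa and H2-Ob was not tested.

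Ctss, the protease that trims the invariant chain, rose after IL-1 in HPC of both genotypes and in wt HSC. In HPC, Ctss had 262, 271 and 245 CPM in wt IL1, against 114, 120 and 87.1 CPM in wt PBS. The groups were far apart, a 2.42-fold difference (log2 1.28 ± 0.18, adjusted p 0.00196 by edgeR) that held in all 13 alternatives. In HPC ko, Ctss had 176, 222 and 252 CPM after IL1, against 103, 116 and 119 CPM after PBS (log2 0.95 ± 0.18, adjusted p 0.0257 by edgeR). That call was lost in 6 of 13 alternatives (adjusted p up to 0.162), among them without IL1 replicate 2 or 3 or any 1 of the 3 PBS libraries. In HSC, Ctss had 76.9, 88.8 and 98.7 CPM in wt IL1, against 29.5, 20.5, 31.0 and 38.2 CPM in wt PBS, a 3.02-fold difference (log2 1.59 ± 0.26, adjusted p 0.0103 by edgeR). The call was lost without wt IL1 replicate 2 or 3 or wt PBS replicate 1 or 2 (adjusted p up to 0.072), and it held when the 1 HSC wt IL1 library with a Kmt2c level in the ko range was left out. In HSC ko, Ctss had 41.2, 43.1, 72.9 and 74.1 CPM after IL1, against 22.1, 21.1, 22.9 and 34.5 CPM after PBS, again without overlap, but it was not called (log2 1.2 ± 0.25, adjusted p 0.0564 by edgeR). In HSC ko edgeR called none of the 10 genes and 0.212% of all genes, with 2 members and 8.79% of all genes at an unadjusted p under 0.05. DESeq2 called Ctss and 1.03% of all genes.

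The response of Ctss was not shown to differ by genotype or population. The response of ko minus that of wt was -0.39 ± 0.36 in HSC and -0.33 ± 0.25 in HPC on the log2 scale, and the response of wt HPC minus that of wt HSC was -0.29 ± 0.33, with adjusted p of 0.861, 1 and 0.926 by edgeR. Ctss was the 1 member called in HSC wt, where 0.157% of all genes were called higher, and the 1 called in HPC ko, where 0.295% were.

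Cd74, the invariant chain that Ctss cuts, rose with it in wt HPC. It had 1081, 777 and 530 CPM in HPC wt IL1, against 276, 268 and 189 CPM in HPC wt PBS, a 3.26-fold difference (log2 1.70 ± 0.30, adjusted p 0.0108 by edgeR) without overlap. This call was lost in the fit of all libraries together and without wt PBS replicate 2 or 3 (adjusted p up to 0.0767). Ctss and Cd74 were the 2 members called in HPC wt, where 0.702% of all genes were called higher. H2-Aa had 109, 160 and 81.7 CPM in HPC wt IL1, against 63.8, 60.9 and 31.1 CPM in HPC wt PBS, with every IL1 library higher, and was not called (log2 1.17 ± 0.33, adjusted p 0.133 by edgeR).

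In ko HPC, Cd74 had 902, 383 and 588 CPM after IL1, against 553, 584 and 564 CPM after PBS, with overlap (log2 0.15 ± 0.29, adjusted p 0.999 by edgeR). Without IL1 replicate 1, the library at 902 CPM, the log2 fold change was -0.22 (adjusted p 0.928 by edgeR). Without IL-1 it stood higher in ko than in wt, at 567 ± 15.6 CPM in HPC ko PBS and 244 ± 48.04 CPM in HPC wt PBS (SD, n = 3 each). That difference was not called (log2 1.21 ± 0.29, adjusted p 0.157 by edgeR) but DESeq2 called it (adjusted p 0.0138, with 0.0138 to 0.494 over all alternatives), and untreated HPC of the first experiment gave a log2 of -0.19 ± 0.20 for the same genotypes. The response of ko minus that of wt was -1.56 ± 0.41 for Cd74 (adjusted p 1 by edgeR), and by edgeR this interaction called 0 of the 10 genes and 0% of all genes, with 3 members and 2.21% of all genes at an unadjusted p under 0.05. DESeq2 called 0 of the 10 genes and 0.0527% of all genes. The same test in HSC called 0 of the 10 genes and 0% of all genes by edgeR, with 0 members and 4.57% of all genes at an unadjusted p under 0.05. DESeq2 called 0 of the 10 genes and 0.0035% of all genes. The summed B cell markers were 3816 to 8128 CPM in HPC ko PBS and 2552 to 3181 CPM in HPC wt PBS, and Igkc ran from 1525 to 3869 CPM in HPC ko PBS and from 743 to 1019 CPM in HPC wt PBS. The part of B cell RNA in the level of Cd74 was not tested.

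In HSC the alpha chain stood lower after IL-1. H2-Aa had 23.4, 44.6 and 42.8 CPM in HSC wt IL1, against 92.5, 44.96, 103 and 203 CPM in HSC wt PBS (log2 -1.56 ± 0.43, adjusted p 0.192 by edgeR). It had 22.0, 21.8, 46.7 and 57.7 CPM in HSC ko IL1, against 59.5, 76.1, 67.6 and 92.1 CPM in HSC ko PBS (log2 -1.0 ± 0.39, adjusted p 0.463 by edgeR). In both genotypes every IL1 library lay below every PBS library, and neither was called. The response of wt HPC minus that of wt HSC was 2.76 ± 0.59 for H2-Aa on the log2 scale (adjusted p 0.148 by edgeR). By edgeR 0 of the 10 genes were called in this test, where 0.0228% of all genes were, with 5 of the 10 and 5.77% of all genes at an unadjusted p under 0.05. H2-Aa was called by DESeq2, with 0.0952% of all genes, and by edgeR without HSC wt PBS replicate 2.

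**Figure D4:**
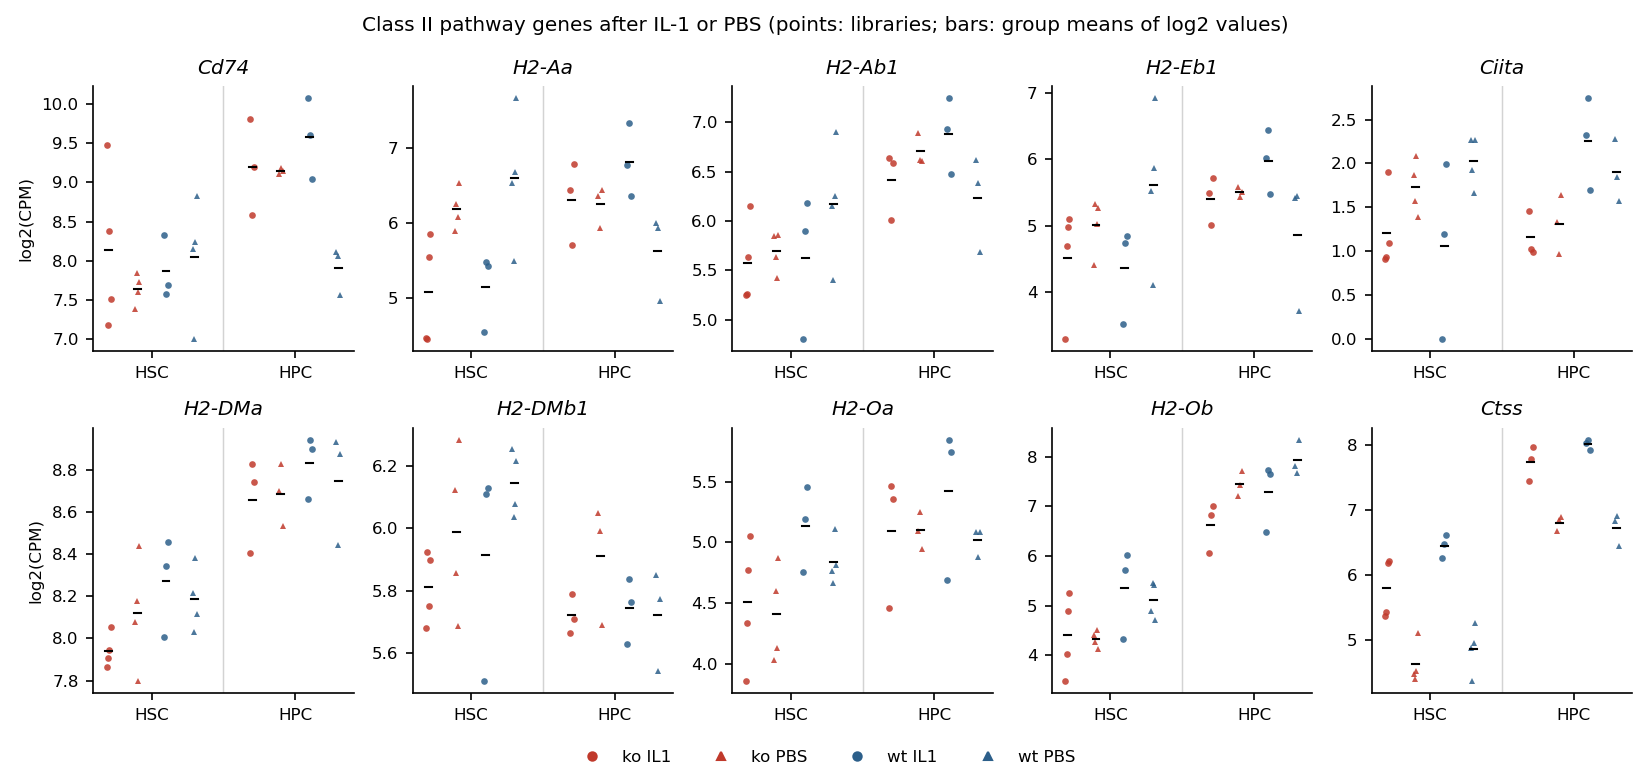
Levels of the 10 genes in the 27 libraries of the second experiment, as log2 CPM on the vertical axis, with ko IL1, ko PBS, wt IL1 and wt PBS along the horizontal axis for HSC and HPC; each point is 1 library. Ctss is higher after IL1 in all 4 pairs without overlap, Cd74 is higher after IL1 in wt HPC, and H2-Aa is lower after IL1 in HSC.

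Other genes of antigen processing rose with Ctss in wt HPC after IL-1. Of 14 tested accessory genes 3 were called higher and none lower: the proteases Lgmn (log2 2.61 ± 0.35, adjusted p 0.00164 by edgeR) and Ctsh (log2 2.18 ± 0.28, adjusted p 0.00108 by edgeR), and Ifi30 (log2 1.62 ± 0.33, adjusted p 0.0277 by edgeR). In ko HPC 1 of 14 was called higher, Lgmn (log2 1.99 ± 0.34, adjusted p 0.0165 by edgeR). Lgmn ran from 38.8 to 119 CPM in HPC ko IL1, against 18.0 to 29.0 CPM in HPC ko PBS. No tested regulator or class I gene was called by edgeR in any of the 4 comparisons of IL1 with PBS. At an unadjusted p under 0.05 there were 4 of 17 regulators and 1 of 9 class I genes in HPC wt, and at most 1 of each in the other comparisons. Among all genes the shares at that threshold were 10.1% in HPC wt, 6.86% in HPC ko, 7.82% in HSC wt and 8.79% in HSC ko.

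Some markers of other cells were called in the same libraries. Of 10 dendritic cell markers, 9 had a log2 fold change above 0 in HPC wt IL1 against PBS (median 1.43 against -0.01 over all genes), with 7 at an unadjusted p under 0.05 and Cd7 called higher (log2 1.87 ± 0.24). Their summed level was 557 to 655 CPM in HPC wt IL1 and 395 to 498 CPM in HPC wt PBS, and 508 to 561 CPM in HPC ko IL1 and 416 to 557 CPM in HPC ko PBS. Of 11 macrophage and monocyte markers, 6 were above 0 and 5 below in HPC wt, with a median of 0.18. In HPC wt IL1 the monocyte genes Ccr2 (log2 1.98 ± 0.29), Cd68 (log2 1.68 ± 0.20) and Csf1r (log2 1.52 ± 0.27) were called higher, and the B cell factor Ebf1 (log2 -2.96 ± 0.62) and the stem cell factor Hlf (log2 -1.04 ± 0.19) lower. Of 10 B cell markers, 4 were above 0 and 6 below in HPC wt, with a median of -1.75. The summed B cell markers were nevertheless 2598 to 5688 CPM in HPC wt IL1 and 2552 to 3181 CPM in HPC wt PBS. The summed level of 11 macrophage and monocyte markers was 320 to 354 CPM in HPC wt IL1 and 159 to 184 CPM in HPC wt PBS, while it was 256 to 351 CPM in HPC ko IL1 and 247 to 273 CPM in HPC ko PBS. In HSC wt it was 98.3 to 127 CPM after IL1 and 75.5 to 102 CPM after PBS, and Cd68 was called higher (log2 1.51 ± 0.25). The part of other cells, if present, in the rise of Ctss and Cd74 was not tested.

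Some counts may hold reads of other genes. In GENCODE M21 on GRCm38, Ciita (chr16:10480059-10528418) overlaps Dexi, Ctss (chr3:95526786-95556403) overlaps Hmgb1-ps5, H2-Oa overlaps BC051537, H2-Eb1 overlaps Gm20513 and H2-DMa overlaps Brd2, and the sources used here do not state the strand setting of the counting. H2-Ob (chr17:34238903-34254414) overlaps no annotated gene. H2-DMb1 has a near-identical neighbour, H2-DMb2, with which it may share reads.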

How the data were processed

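Whole-read counts per gene were deposited by the authors, 1 table per experiment, and were used as deposited. Per the submitters' processing notes, STAR 3.0.4, Subread and featureCounts 1.4.5 made them; the sources used here do not give the genome build, annotation or strand setting. Per the labels' protocols, RNA came from sorted bone marrow populations. Of 41388 gene IDs, 40340 matched GENCODE M21, which gave symbols and exon lengths. The 3 rows of the first table that name no mouse gene held 9.57e-05% of its reads and were left out.

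Counts were filtered with filterByExpr (minimum count 10, minimum total 15), scaled by TMM and tested with the quasi-likelihood test of edgeR 4.0.16 (R 4.3.3, robust), with Benjamini-Hochberg adjustment over all genes tested, in 32 comparisons. Genotypes were fitted within each untreated population, populations over all 48 untreated libraries, and IL-1 within HSC and within HPC. The edgeR, DESeq2 and limma steps were tested on simulated data. The alternatives were DESeq2 1.42.0, RLE scaling, no filter, limma voom 3.58.1 with sample weights, the replicate number as a block, a Y-linked covariate, all libraries of an experiment in one fit, and leaving out each library (120 refits). CPM come from TMM-scaled library sizes over each experiment, with SD over libraries. Counting intervals are 95% exact Poisson-based intervals and cover counting error only. Permutations used scipy 1.17.1 and numpy 2.4.6.

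The 10 genes and the lists of accessory, regulator, class I and marker genes were chosen with earlier results of these data known. Named genes beyond the 10 were a panel of regulators and class I genes, listed genes called in a comparison that called a member, and the 5 genes of most similar course, of which some are not reported here. Slamf1, Mpo, Pax5, Ms4a1, Igkc, Xcr1, Clec9a, C1qb, March8 and, in HSC or GMP ko, Cd163, Vcam1 and Ccr2 were named from the lists after their values were seen.

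The labels number replicates but do not say that a number marks a shared animal or day. Libraries of equal number deviated together (correlation over 0.1 in each of 3 pairs) in HPC wt IL1 and PBS, HPC ko IL1 and PBS, and HPC ko and wt IL1. The reported tests held no term for the replicate number and are unpaired there too. It entered only the alternative with the replicate block. The correlation between libraries of a group was 0.96 to 0.991 in the first experiment and 0.951 to 0.99 in the second, and none was found to be a copy of another.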

Additional observations from a re-analysis of the deposited data

Results flagged for a closer look

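Of 150 combinations of a gene and a group of 4 libraries, 13 held a library whose distance from its nearest neighbour took up most of the group's range. Chance alone flags about 1 in 20 groups.

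Some of these fell in the same library. GMP ko replicate 2 held 77.66 CPM of Cd74, against 11.65 to 20.7 CPM in the other GMP ko libraries, and 24.32 CPM of H2-Aa, against 3.988 to 6.315 CPM. HSC het replicate 1 held 721.5 CPM of Cd74, against 353.5 to 406.9 CPM in the other HSC het libraries, and 257.8 CPM of H2-Aa, against 123.5 to 135 CPM. HSC ko replicate 2 held 6.105 CPM of Ciita, against 3.568 to 3.988 CPM, and 84.02 CPM of H2-DMb1, against 53.87 to 57.8 CPM.

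Other libraries stood apart for 1 gene each. Ctss was at 47.83 CPM in HSC ko replicate 4, against 36.71 to 37.65 CPM in the rest of that group, and at 34.49 CPM in HSC ko PBS replicate 4, against 21.09 to 22.86 CPM. Ciita was at 3.747 CPM in HSC ko IL1 replicate 3, against 1.884 to 2.135 CPM, and at 0.1689 CPM, from 2 reads, in GMP het replicate 4, against 0 in the others. H2-Aa was at 5.429 CPM in GMP het replicate 1, against 2.15 to 2.534 CPM. H2-DMb1 was at 67.84 CPM in GMP ko replicate 1, below 89.53 to 93.18 CPM in the others. H2-Ob was at 169.2 CPM in pGM wt replicate 1, against 145 to 148.3 CPM.

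The effect of ko against wt differed between GMP and HSC for both genes of H2-DO, by 1.22 on the log2 scale for H2-Oa and by 1.35 for H2-Ob, in the edgeR interaction test given above.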

How the results depend on the processing

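Among the members' fold changes given above, 3 that were not called changed sign. Cd74 in HPC ko after IL-1 was at -0.21 with limma voom and, with single libraries left out, between -0.22 (without HPC ko IL1 replicate 1) and 0.42, H2-Ob in HPC het against wt was at 0.01 with limma voom, and H2-Ab1 in GMP ko against wt was at 0.03 with the Y-linked covariate. Counts of members called moved by more than 1.5 times in 61 settings and stayed within it in 438. In HSC ko against wt, with 0 called, DESeq2, limma voom and the fit of all libraries each called 2, the replicate block 1, and leaving out single libraries 0 to 1. In GMP ko against wt, with 0 called, DESeq2 called 2, limma voom 1 and the fit of all libraries 1. DESeq2 called 3 in HPC het against wt, 1 in HSC het against wt and 1 in HSC ko against het, all with 0 by edgeR, and the fit of all libraries called 1 in the last. In HPC ko against wt and in pGM ko against wt, with 1 called, the Y-linked covariate and the fit of all libraries each called 0, and leaving out single libraries gave 0 to 1. In pGM wt against HPC wt, with 3 called, leaving out single libraries gave 1 to 3. In HSC wt after IL-1, with 1 called, DESeq2 called 2 and leaving out single libraries gave 0 to 1. In HSC ko after IL-1, with 0 called, DESeq2, no filter, limma voom, the replicate block and the fit of all libraries each called 1, Ctss, and leaving out single libraries gave 0 to 1, with Ctss called without IL1 replicate 1 or PBS replicate 4. In HPC after IL-1 the fit of all libraries called 1 in wt, against 2 reported, and 0 in ko, against 1 reported, and leaving out single libraries gave 1 to 2 in wt and 0 to 1 in ko. In HPC ko PBS against wt PBS, with 0 called, DESeq2 called 1. For the IL-1 response of wt HPC minus wt HSC, with 0 called, DESeq2 called 1 and leaving out single libraries gave 0 to 1. The causes were not tested. RLE scaling moved no count of members by over 1.5 times.

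The replicate block changed no member's call in the 3 comparisons where libraries of equal number deviated together. In these, 2 were called in HPC wt after IL-1, 1 in HPC ko after IL-1 and 0 in HPC ko IL1 against wt IL1. Elsewhere libraries share only a number, and the block called 1 where 0 were reported in HSC ko against wt (H2-Ob), HSC ko after IL-1 (Ctss), HSC ko IL1 against wt IL1 (Ctss) and HPC ko PBS against wt PBS (Cd74). In HPC ko against wt it called H2-Aa and not H2-Ob.

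Depth limits the statements on Ciita in GMP, with 2 reads in GMP wt, and on H2-Eb1 there.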
